A study of Mus musculus with 4 samples.

Results

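A set of 8 tight junction genes was followed through 4 single-cell RNA libraries of a mouse HER2 breast cancer model. It holds the claudins Cldn1, Cldn3, Cldn4, Cldn5, Cldn7 and Cldn18, the membrane protein gene Ocln (occludin) and the scaffold gene Tjp1 (zonula occludens protein ZO-1). The 8 genes were listed by name, and all are among the 27998 genes of the files. Claudins carried a tissue signature in these libraries. Cldn18 and Cldn5 were lung genes, each held by a different class of lung cell, and Cldn3 and Cldn4 were mostly genes of the mammary cells. Cldn7 was found in mammary cells and also in the lungs, in alveolar type 1-like cells and in a cluster led by airway and surfactant genes. Within the primary tumor, Cldn3, Cldn4 and Cldn7 differed several-fold between clusters of cells, and a few very deep cells held most of their counts.

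Tight junctions seal the space between neighbouring epithelial or endothelial cells. Claudins are membrane proteins with 4 spans that link across that space and set which ions and solutes pass, and each tissue uses its own set of them. Cldn5 is the claudin of blood vessel endothelium, Cldn18 has a lung form that is made by alveolar epithelium, and Cldn3, Cldn4 and Cldn7 are widespread in glandular epithelium, the mammary gland included. Occludin sits in the same strands, and ZO-1 ties them to the actin skeleton from the inside of the membrane.

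All cells came from MMTV-HER2/Neu mice on the FvB background and were sorted as CD45- HER2+. These mice carry rat Erbb2 (HER2, neu) under the MMTV promoter, a viral promoter that is active in mammary epithelium; the files have no separate row for the transgene. The late lung and primary tumor libraries came from mice over 20 weeks of age with a primary tumor. The early lung and early lesion libraries came from mice aged 14 to 18 weeks without a palpable tumor, and the early lesion is their mammary gland. The labels call the sorted cells of every library breast cancer cells, and those of the lungs DCCs. There was 1 library per group, and whether it came from 1 mouse or several is not given in the sources used here, so no test between groups was possible and every interval below is an exact 95% interval for counting error alone.

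A barcode counted as a cell with at least 500 unique molecular identifiers (UMIs, each a tag on 1 captured RNA molecule), at least 250 detected genes and at most 20% mitochondrial UMIs. This left 210 cells in the late lung, 185 in the early lung, 434 in the primary tumor and 1318 in the early lesion, with median depths of 811, 772, 1657.5 and 2360 UMIs, and no cell barcode was shared between libraries. Cells over 10000 UMIs were few, yet 18 of them held 54.5% of the cell UMIs of the primary tumor and 8 held 42.2% of those of the late lung, against 6.50% in 21 early lesion cells and 5.60% in 1 early lung cell. The mammary libraries held cells of mammary luminal type, and whether these are cancer cells was not tested. In them 10 of 10 mammary luminal markers were detected. The markers summed to 80551 counts per 1000000 UMIs of the summed cells (CPM) in the primary tumor and 104378 CPM in the early lesion. In the lungs 8 of 10 were detected, at 1929 CPM in the late and 525 CPM in the early library. Wap was at 0 in both lungs, Glycam1 in the late lung and Lalba in the early lung. Only 9 of 210 late lung cells and 1 of 185 early lung cells grouped with mammary luminal-like cells, so most lung cells went against their label and are called lung cells here. Markers of alveolar type 1 cells summed to 10269 CPM in the late and 14798 CPM in the early lung, against 45.5 CPM in the primary tumor and 26.2 CPM in the early lesion. The leukocyte marker Ptprc (CD45) had 0 counts in both lungs and in the primary tumor and 4 in the early lesion. Erbb2 had 3 counts in each lung library (7.28 CPM late, 14.7 CPM early), 87 in the primary tumor (47.6 CPM) and 30 in the early lesion (7.64 CPM).

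The promoters of 4 claudins are shown first, those of Cldn3 and Cldn4 found mostly in the mammary libraries and those of Cldn5 and Cldn18 found mostly in the lungs, to set the letters at their starts beside their expression. Cldn3 and Cldn4 are neighbours on chromosome 5 of mm10, Cldn4 on the minus strand and Cldn3 on the plus strand, with 39.3 kb between them. Cldn5 is on chromosome 16 and Cldn18 on chromosome 9. Each sequence runs 5′ to 3′ on the strand of the gene, from 250 bases before to 50 bases after the start (RefSeq, GRCm38.p6, the mm10 assembly), and all 8 genes had an entry in that table. Capitals mark matches, on either strand, to any of 5 motifs.
Cldn3 (chr5:134985964-134986263, plus strand): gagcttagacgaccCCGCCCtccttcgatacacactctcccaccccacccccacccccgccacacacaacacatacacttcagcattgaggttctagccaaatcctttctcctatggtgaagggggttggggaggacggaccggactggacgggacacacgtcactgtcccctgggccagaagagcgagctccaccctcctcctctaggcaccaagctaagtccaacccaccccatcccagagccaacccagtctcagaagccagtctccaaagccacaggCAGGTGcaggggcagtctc
Cldn4 (chr5:134946885-134947184, minus strand): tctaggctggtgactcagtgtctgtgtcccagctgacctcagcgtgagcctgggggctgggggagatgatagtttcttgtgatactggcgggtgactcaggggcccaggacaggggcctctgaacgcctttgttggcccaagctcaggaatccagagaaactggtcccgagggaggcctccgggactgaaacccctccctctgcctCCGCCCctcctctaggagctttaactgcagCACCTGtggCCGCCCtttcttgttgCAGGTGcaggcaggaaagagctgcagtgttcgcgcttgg
Cldn5 (chr16:18776597-18776896, plus strand): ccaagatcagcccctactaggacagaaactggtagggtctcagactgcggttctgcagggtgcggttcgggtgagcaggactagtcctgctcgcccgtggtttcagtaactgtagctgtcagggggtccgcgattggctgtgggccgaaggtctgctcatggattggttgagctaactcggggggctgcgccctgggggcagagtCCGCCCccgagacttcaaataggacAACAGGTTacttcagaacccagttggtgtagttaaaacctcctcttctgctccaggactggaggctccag
Cldn18, first start (chr9:99717218-99717517, minus strand): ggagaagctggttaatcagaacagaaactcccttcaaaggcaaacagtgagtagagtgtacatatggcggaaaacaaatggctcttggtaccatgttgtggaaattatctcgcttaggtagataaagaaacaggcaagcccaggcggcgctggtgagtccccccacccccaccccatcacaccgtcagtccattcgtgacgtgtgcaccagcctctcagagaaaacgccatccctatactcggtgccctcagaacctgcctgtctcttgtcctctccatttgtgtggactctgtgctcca

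The E-box CACCTG, the kind bound by Snail and Zeb repressors, occurred 1 time in the Cldn3 window and 2 times in the Cldn4 window, and 20.3% of all 32544 promoters in the table held it. The windows of Cldn5 and of both Cldn18 starts had no CACCTG. The presence of CACCTG did not follow the tissue over the other genes: the windows at the Ocln starts held it 1 and 2 times, those at the Cldn7 starts 0 and 2 times, and those of Cldn1 and Tjp1 0 times. A GC box (GGGCGG, 35.9% of promoters) was found 1 time in Cldn3, 2 times in Cldn4 and 1 time in Cldn5. The Grainyhead-like motif AACCNGTT (2.09% of promoters) occurred 1 time, in Cldn5. Neither the letters CTTGAG of an NKX2-1 core (15.7%) nor the ETS letters CNGGAAG (32.0%) occurred in the 4 windows shown. In these windows no match overlapped another, and a match describes the letters only.

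Across the libraries, Cldn18 and Cldn5 were found almost wholly in the lungs. Cldn18 had 423 UMIs (1027 CPM, interval 931 to 1129) in the late lung and 296 (1453 CPM, 1292 to 1629) in the early lung, against 1 UMI (0.548 CPM) in the primary tumor and 3 (0.764 CPM) in the early lesion. Cldn5 had 663 UMIs (1609 CPM, 1489 to 1736) in the late lung and 158 (776 CPM, 659 to 907) in the early lung, against 0 UMIs in the primary tumor and 25 (6.37 CPM) in the early lesion. The intervals of both lungs lay far above those of both mammary libraries for each gene.

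Cldn3 had the reverse order. It had 15 UMIs (36.4 CPM, 20.4 to 60.0) in the late lung and 5 (24.5 CPM, 7.97 to 57.3) in the early lung, against 965 (529 CPM, 496 to 563) in the primary tumor and 2361 (601 CPM, 577 to 626) in the early lesion. Cldn7 had 14 UMIs (34.0 CPM) in the late lung and 11 (54.0 CPM) in the early lung, against 370 (203 CPM) in the primary tumor and 966 (246 CPM) in the early lesion. For Cldn3 and Cldn7 the intervals of the lungs overlapped each other, and those of the mammary libraries did not.

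Cldn4 had 0 UMIs in both lungs, 57 (31.2 CPM, 23.6 to 40.4) in the primary tumor and 209 (53.2 CPM, 46.3 to 61.0) in the early lesion. A count of 0 allows up to 7.28 CPM in the late lung and 14.7 CPM in the early lung (3 counts of the library's cell UMIs). Cldn1, a claudin of skin and other epithelia, was likewise at 0 in both lungs, and it had 32 UMIs (17.5 CPM, 12.0 to 24.7) in the primary tumor and 12 (3.06 CPM, 1.58 to 5.34) in the early lesion. The junction genes that are not claudins were found in every library. Ocln had 14 UMIs (34.0 CPM) in the late lung, 13 (63.8 CPM) in the early lung, 42 (23.0 CPM) in the primary tumor and 82 (20.9 CPM) in the early lesion. Tjp1 had 55 (133 CPM), 18 (88.4 CPM), 40 (21.9 CPM) and 51 (13.0 CPM) UMIs in these libraries in the same order. For Tjp1 the intervals overlapped between the lungs and between the mammary libraries, and lay apart between the sites. For Ocln the interval of the early lung (34.0 to 109 CPM) lay above those of the primary tumor (16.6 to 31.1) and the early lesion (16.6 to 25.9). That of the late lung (18.6 to 57.0) overlapped each of the others.

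**Figure D1:**
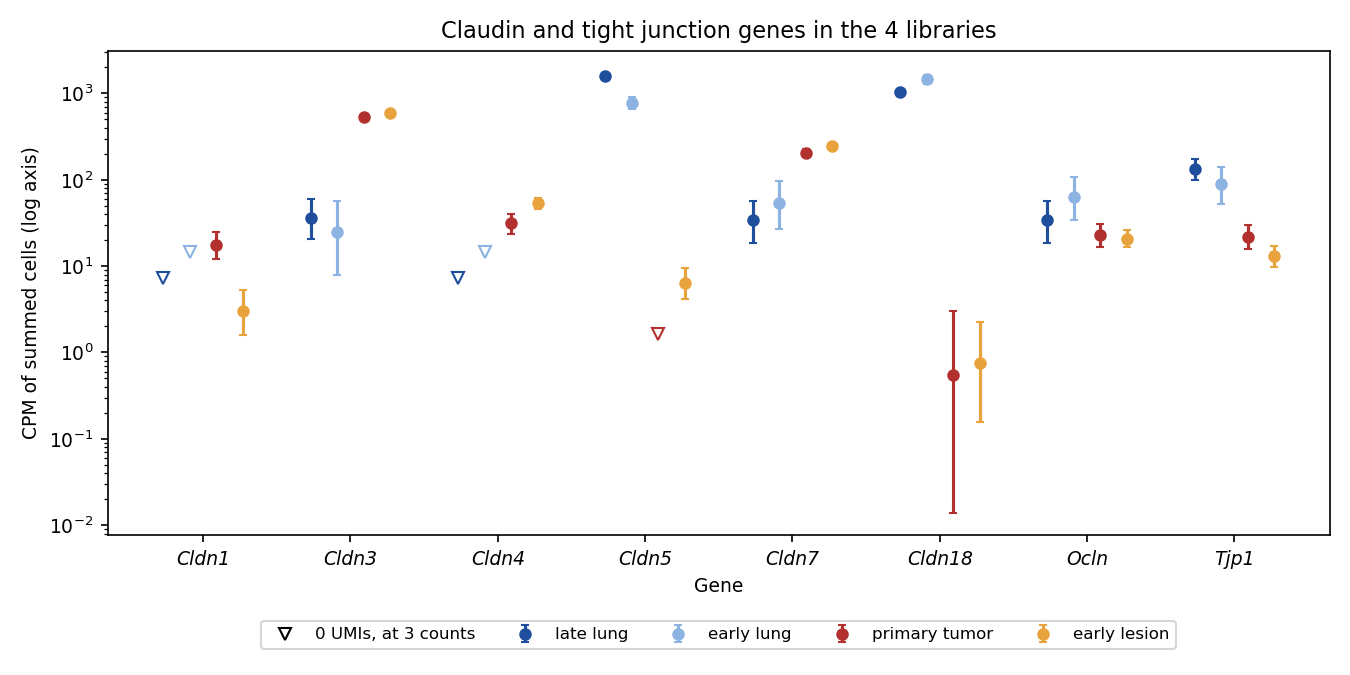
Level of each gene in each library (CPM of the UMIs summed over cells, log axis), with exact 95% Poisson intervals for counting error. Open triangles mark 0 UMIs, drawn at 3 counts. Cldn5 and Cldn18 stand high in the lungs, and Cldn3, Cldn4 and Cldn7 in the mammary libraries.

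Free RNA, read from barcodes with 1 to 50 UMIs, carried the same genes as the cells of its library. Cldn18 made up 976 and 1189 CPM of it in the late and the early lung, and Cldn5 681 and 522 CPM. Cldn3 made up 340 CPM in the primary tumor and 621 CPM in the early lesion, and Cldn7 154 and 222 CPM. Cldn4 made up 19.1 CPM in the primary tumor and 73.6 CPM in the early lesion, where its cells had 53.2 CPM, and Epcam 926 and 834 CPM. The part of free RNA in the shares of cells given below was not tested.

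The lung claudins belonged to separate cell classes. Cells were clustered without any tight junction gene, and classes were named from markers that include none, so the levels below did not build the classes. Alveolar type 1-like cells (93 in the late lung, 61 in the early lung; Ager and Hopx lead their cluster), which line the air spaces as thin sheets, held 94.8% of the Cldn18 UMIs of the late lung and 96.6% of those of the early lung, with 19.4% and 30% of the cell UMIs. Endothelial-like cells (55 late, 73 early; Ramp2 and Egfl7 among the leading genes), which line vessels, held 98.3% of the Cldn5 UMIs of the late lung and 97.5% of those of the early lung, with 49.2% and 35.3% of the cell UMIs. In alveolar type 1-like cells the level of Cldn18 was 5019 CPM in the late and 4675 CPM in the early lung, against 34.5 and 55.6 CPM in the endothelial-like cells of the same libraries. Cldn5 stood at 3216 CPM in late and 2142 CPM in early endothelial-like cells, against 50.1 and 16.3 CPM in alveolar type 1-like cells. A Cldn18 UMI was found in 90.3% of late and 85.2% of early alveolar type 1-like cells, against 10.9% and 5.48% of endothelial-like cells. A Cldn5 UMI was found in 58.2% of late and 53.4% of early endothelial-like cells, against 4.30% and 1.64% of alveolar type 1-like cells. The median depth was 766 UMIs in the alveolar type 1-like and 741 in the endothelial-like cluster. At 1000 UMIs a cell, the gene of the other class was found in 0 cells of each class and library.

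Single cells showed the same split. Of the 210 late lung cells, 102 had a Cldn18 UMI and 43 a Cldn5 UMI, and 9 had both, where 20.9 would be found if the genes were drawn independently. Of the 185 early lung cells, 61 had Cldn18, 43 had Cldn5 and 3 had both, against 14.2. In 1 cell of the late lung and 0 of the early lung did both genes reach 2 UMIs. After thinning each cell to 1000 UMIs, which left 79 late and 55 early cells, no cell had both. A share of 36.7% of these late cells and 36.4% of these early cells had Cldn18, and 19.0% and 27.3% had Cldn5. Neither gene was detected in 74 late and 84 early lung cells at their own depth.

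**Figure D2:**
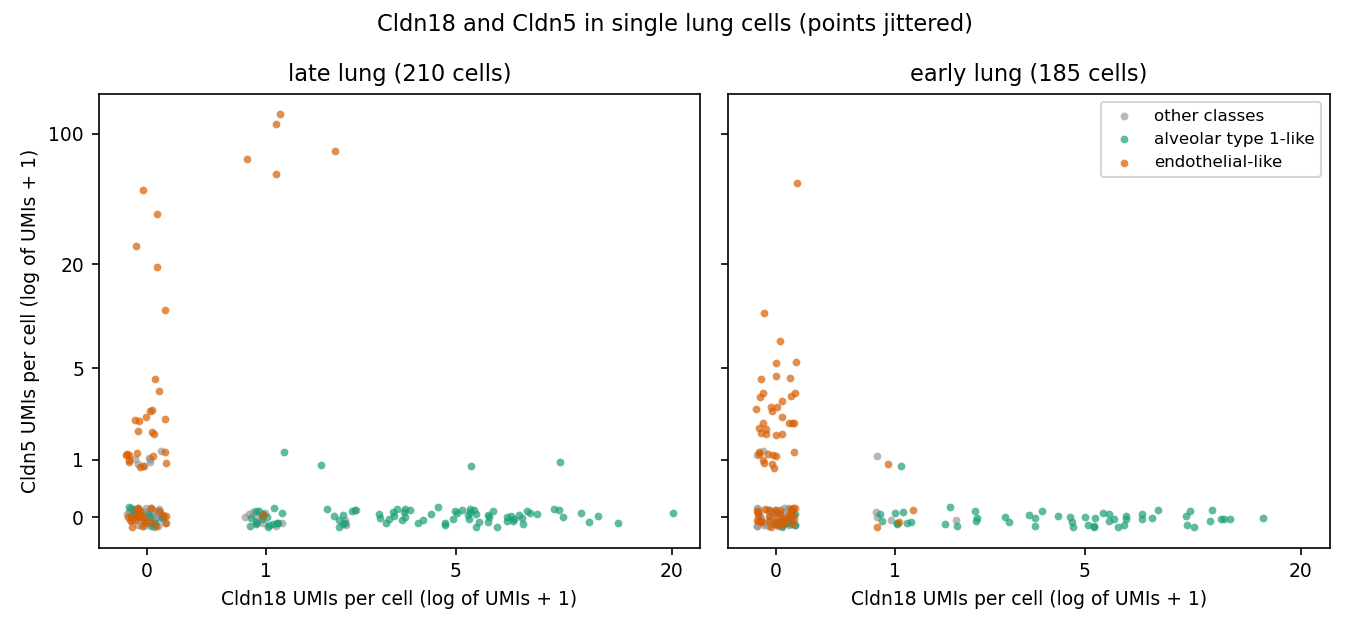
UMIs of Cldn18 (horizontal) and Cldn5 (vertical) in each lung cell, late lung left and early lung right, on log axes of UMIs + 1 with a small random shift per point. Colours give the cell class. Most cells lie along 1 of the axes. Of the 7 Cldn18 UMIs in endothelial-like cells of the late lung, 1 came from a cell of at most 10000 UMIs.

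The other genes, found in smaller amounts, were also read by class. Cldn7 had 7 of its 14 late lung UMIs and 10 of its 11 early lung UMIs in alveolar type 1-like cells. Its level there was 87.6 CPM in the late and 163 CPM in the early lung, with 25.1 and 8.55 CPM in free RNA. In the primary tumor Cldn7 stood at 203 CPM over all cells and at 64.0 CPM in the largest cluster. Cldn3 had no UMI in alveolar type 1-like cells in either library. Its 5 early lung UMIs were all in a cluster without a class name (15 cells early, 21 late) that was led by the airway genes Scgb1a1 and Scgb3a2 together with the surfactant genes Sftpb, Sftpa1 and Sftpc. Of the 15 late lung Cldn3 UMIs, 6 were in that cluster, 7 in the 9 mammary luminal-like cells and 2 in pericyte or smooth muscle-like cells. Cldn3 stood at 111 CPM (40.9 to 243) in that cluster in the late lung and at 131 CPM (42.5 to 305) in the early lung, above free RNA (28.2 and 34.2 CPM). The 10 mammary luminal-like cells of the 2 lungs together had 7 Cldn3 UMIs, or 167 CPM (67.1 to 344). The cluster without a class name also held the other 7 late and 1 early Cldn7 UMIs, and the mammary luminal-like lung cells held 0. In the late lung that cluster had 13.1% of the cell UMIs, against 19.4% in alveolar type 1-like cells, so Cldn7 was not particular to the latter. Tjp1 had 87.3% of its late and 61.1% of its early lung UMIs in endothelial-like cells, which held 49.2% and 35.3% of the cell UMIs. Without cells over 10000 UMIs the late lung had 16 Tjp1 UMIs, and 9 of them were in endothelial-like cells. Ocln had 7 UMIs in alveolar type 1-like and 6 in endothelial-like cells in each lung.

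In the early lesion, mammary luminal-like cells (1280 of 1318) held 98.9% of the cell UMIs and all of the Cldn1, Cldn3, Cldn4 and Ocln UMIs. Of the 25 Cldn5 UMIs, 20 were in 8 endothelial-like cells that held 0.229% of the cell UMIs. The 16 lesion cells that grouped with pericyte or smooth muscle-like cells, and also carry basal markers, had 0 Cldn3 UMIs, which allows up to 139 CPM. In the primary tumor 432 of 434 cells were mammary luminal-like. Its cells had no Cldn5, and 7 of 11 endothelial markers were at 0, Cdh5, Ramp2, Egfl7 and Kdr among them. The endothelial list summed to 48.2 CPM in the tumor and 75.6 CPM in the lesion, and to 8092 CPM in the late and 5528 CPM in the early lung.

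The primary tumor against the early lesion asks which junction genes differ between the mammary stages. The words higher and lower are kept for CPM ratios of 2-fold or more in genes with at least 20 counts over both libraries. Over all cells 7 genes were measured, of which Cldn1 was higher and Cldn5 was lower in the tumor, and the other 5 were neither. By the same rule 25.6% of 9811 genes were higher and 7.12% lower. Cldn1 differed by 2.48 on the log2 scale (1.52 to 3.61). Cldn5, with 0 counts, was at least 3.88-fold lower against a floor of 3 counts, and the interval of its log2 ratio ended at -1.55. Here and below, a fold given as at least a value is against that floor and is not the limit of an interval. Within mammary luminal-like cells alone Cldn5 had 0 counts in the tumor and 5 in the lesion. In the tumor 2 cells grouped with endothelial-like cells, though only 4 of 11 endothelial markers were detected in the whole library, and in the lesion 8 did. Cldn3 (-0.19, -0.30 to -0.08), Cldn7 (-0.28, -0.46 to -0.11) and Cldn4 (-0.76, -1.22 to -0.34) lay under 2-fold. The median over all genes was 0.33, and it moved by -0.40 under TMM scaling, which moves each ratio alike. That shift takes Cldn4 past 2-fold, to lower in the tumor, and so does DESeq2 scaling (-0.41). Cldn3 and Cldn7 stay under 2-fold with either scaling.

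That near equality of Cldn3 and Cldn7 rested on the deep tumor cells. The 18 tumor cells over 10000 UMIs held 78.5% of the tumor's Cldn3 UMIs, 80.0% of its Cldn7, 75.4% of its Cldn4 and 81.3% of its Cldn1 UMIs, and 1 cell alone had 201 Cldn3 UMIs. In the lesion, cells of that depth held 6.82% of the Cldn3 UMIs. Without the deep cells Cldn3 stood at 249 CPM in the tumor and 599 CPM in the lesion, a log2 ratio of -1.26 (-1.48 to -1.06). Cldn7 had 89.2 and 248 CPM (-1.47, -1.84 to -1.14), and Cldn4 16.9 and 51.8 CPM (-1.57, -2.52 to -0.84). Of 6 genes then measured, 4 were called lower in the tumor (Cldn3, Cldn4, Cldn7 and Cldn5) and none higher, where 12% of 8724 genes were lower and 14.9% higher. The call for Cldn5 (0 against 25 counts) rested on the 0.5 added counts. Against the floor of 3 counts it was 1.88-fold, under 2-fold, and the interval of its log2 ratio ended at -0.51. Cldn1 then had 6 counts in the tumor and 12 in the lesion, too few to call.

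The share of cells with the genes pointed the same way. After thinning to 1000 UMIs (312 tumor and 1041 lesion cells, with 122 and 277 shallower cells left out), 19.2% of tumor cells and 41.9% of lesion cells had a Cldn3 UMI. Unthinned, the shares were 31.8% and 66.2%. In the shallower cells left out by thinning the gap was smaller, at 23.0% of tumor cells and 35.7% of lesion cells. For Cldn7 the thinned shares were 8.01% in the tumor and 21.8% in the lesion, and for Cldn4 1.28% and 5.09%. Epcam, an adhesion protein gene of epithelial cells, was found in 35.3% of thinned tumor cells and 55.2% of thinned lesion cells.

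**Figure D3:**
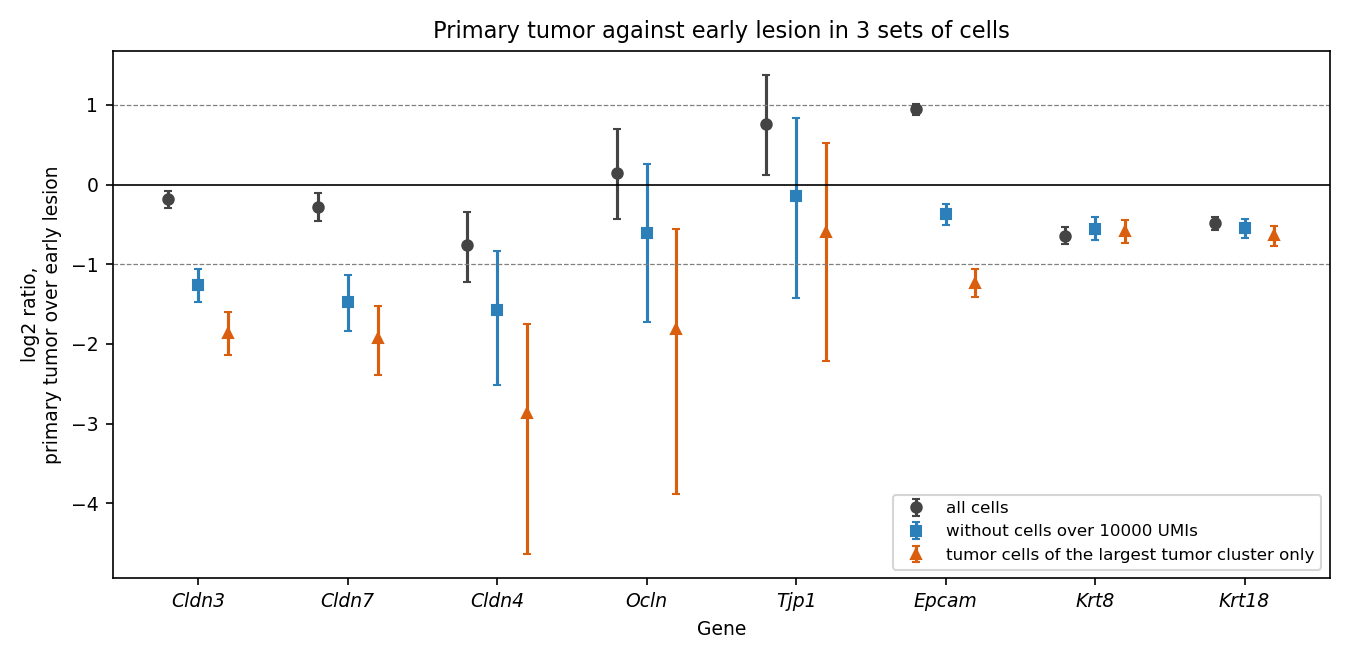
Log2 ratio of CPM, primary tumor over early lesion, over all cells, without cells over 10000 UMIs, and with the tumor limited to its largest cluster. Bars are exact 95% intervals for counting error, and dashed lines mark 2-fold. Cldn3, Cldn7, Cldn4 and Epcam move down from the first set to the last, and the keratin genes Krt8 and Krt18 stay between -0.64 and -0.49. The epithelial genes Cd24a (-1.95, -1.88 and -1.81 in the 3 sets) and Krt7 are not shown.

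The level in the tumor was not even over depth, and in the lesion it was. Tumor cells of 500 to under 1000 UMIs had 480 CPM of Cldn3, those of 1000 to under 2000 had 386 CPM, those of 2000 to under 5000 had 173 CPM, those of 5000 to 10000 had 119 CPM and those over 10000 had 761 CPM. In the lesion the same bins held between 580 and 632 CPM. Cldn7 in the tumor went through 171, 113, 61.4, 97.8 and 297 CPM over these bins, and Epcam through 1635, 1169, 366, 326 and 2585 CPM. The bin of 5000 to 10000 UMIs holds 15 tumor cells with 11 Cldn3 UMIs, and the bin over 10000 holds 18 cells. The median mitochondrial share of the tumor cells was 1.23% in the lowest bin, 0.364% and 0.362% in the bins from 2000 to 10000 UMIs, and 4.63% over 10000, and its part in the levels was not tested.

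**Figure D4:**
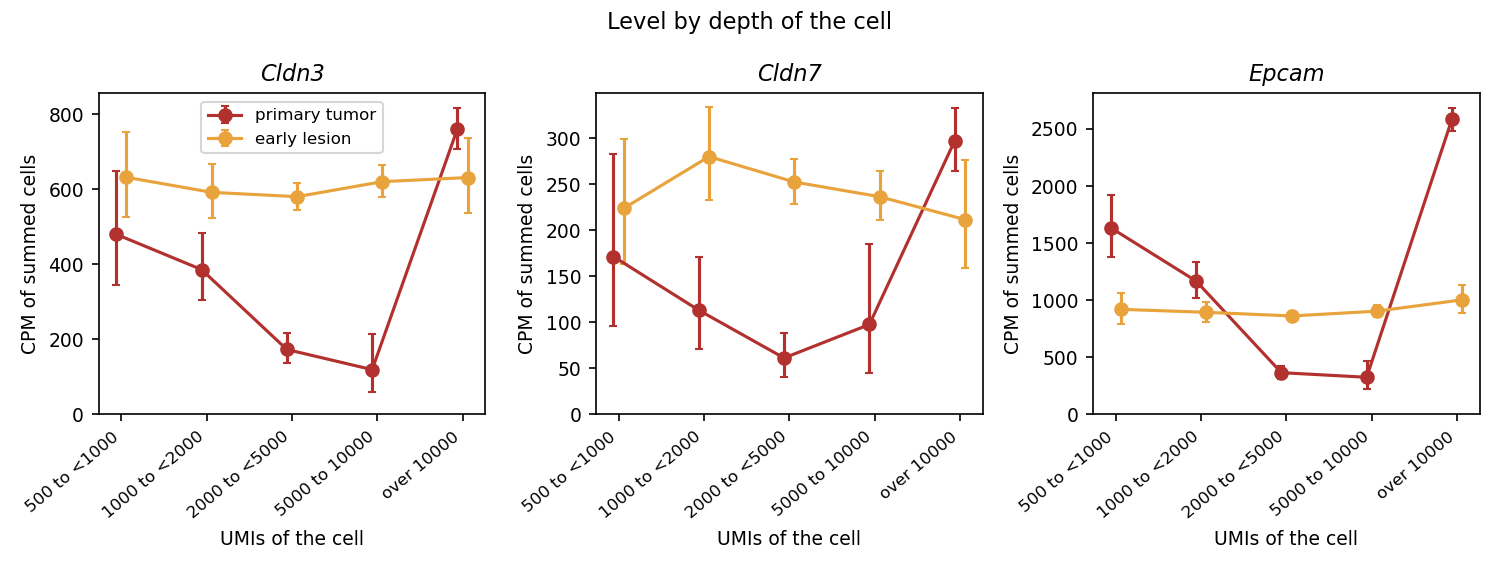
CPM of Cldn3, Cldn7 and Epcam in primary tumor and early lesion cells by the number of UMIs of the cell, with exact 95% Poisson intervals. The lesion is nearly flat, and the tumor is lowest between 2000 and 10000 UMIs and highest for Cldn3, Cldn7 and Epcam over 10000 UMIs.

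Clusters of tumor cells showed where the high levels were. The largest held 328 tumor cells with a median of 1923.5 UMIs and 0.390% mitochondrial UMIs and was led by Socs2 and Aldoc. In it Cldn3 stood at 165 CPM, Cldn7 at 64.0 CPM, Cldn4 at 6.66 CPM, Ocln at 5.33 CPM and Epcam at 380 CPM. These levels of Cldn3, Cldn7 and Cldn4 were under those of the tumor's free RNA (340, 154 and 19.1 CPM). Another 77 cells (median 858 UMIs, 10.9% mitochondrial) were led by Aqp5 and mitochondrial genes and had 896 CPM of Cldn3, 379 of Cldn7, 126 of Cldn4, 50.5 of Cldn1 and 3332 of Epcam. The third, 21 cells with a median of 38878 UMIs and 5.40% mitochondrial UMIs, held 17 of the 18 deepest cells, was led by Malat1 and Neat1 with Aqp5, and had 776 CPM of Cldn3, 295 of Cldn7, 42.4 of Cldn4, 27.2 of Cldn1 and 2615 of Epcam. Both of these clusters stood above the largest cluster in each of these genes, and their intervals for Cldn3 (700 to 1130 and 722 to 833 CPM) lay apart from its own (137 to 197 CPM). No tight junction gene was used to build the clusters. Wfdc18, one of the leading genes of the largest cluster, had 39255, 35868 and 35235 CPM in the 3 clusters. Lesion clusters of luminal-like cells with at least 89 cells held 462 to 661 CPM of Cldn3.

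Against the whole lesion, the largest tumor cluster had log2 ratios of -1.86 for Cldn3 (-2.14 to -1.60), -1.93 for Cldn7 (-2.39 to -1.53), -2.86 for Cldn4 (-4.64 to -1.75) and -1.81 for Ocln (-3.88 to -0.56, 4 counts in the cluster). Tjp1 was at -0.60 there with 6 counts, and Epcam at -1.23. Krt8 and Krt18, the keratins of luminal cells, were at -0.59 and -0.64. Epithelial genes were not alike in this. Cd24a was at -1.81 in the largest cluster, and it was lower over all cells (-1.95) and without the deep cells (-1.88) too. Krt7 was at -0.04, 0.46 and 0.01 in the same order. Cell composition and the level per cell are separated here only as far as the clusters separate them.

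Ocln and Tjp1 did not pass the 2-fold threshold between tumor and lesion. Ocln had a log2 ratio of 0.15 (-0.43 to 0.69) over all cells, -0.25 under TMM scaling and -0.61 (-1.72 to 0.26, 11 tumor counts) without the deep cells. Tjp1 had 0.76 (0.12 to 1.38), 0.36 under TMM scaling and -0.15 (-1.42 to 0.84, 9 tumor counts) without the deep cells. The point values of both genes thus changed sign without cells over 10000 UMIs, and that of Ocln also with the scaling. The intervals of Ocln in both sets of cells, and of Tjp1 without the deep cells, included equality, so no direction was shown there.

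The late lung against the early lung asks what differs between stages in the lung. Of 6 genes measured, Cldn5 was higher at 1.05 on the log2 scale (0.80 to 1.31) and none was lower, where 12.6% of 4552 genes were higher and 4.96% lower. This call ended without cells over 10000 UMIs, which held 78.1% of the late lung's Cldn5 UMIs and 131 of them in 1 cell: the ratio was then 0.14 (-0.23 to 0.52), and the 12.6% and 4.96% became 6.02% and 5.20% of 3192 genes. Within endothelial-like cells Cldn5 stood at 3216 CPM in the late and 2142 CPM in the early lung (0.58, 0.33 to 0.85), and at 0.56 (0.18 to 0.95) without the deep cells, under 2-fold in both. Cldn18 had a ratio of -0.50 (-0.72 to -0.28) over all cells, 0.18 (-0.04 to 0.40) without the deep cells and 0.10 (-0.12 to 0.33) within alveolar type 1-like cells. Cldn3, with 15 late and 5 early UMIs, had a ratio of 0.48 (-0.96 to 2.38), and it passed 2-fold without the deep cells (1.19, -0.26 to 3.09) on the same 20 UMIs.

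The early lung was next set against the early lesion, and all 7 genes measured passed 2-fold. Cldn18 (log2 ratio 10.67), Cldn5 (6.90), Tjp1 (2.79, 1.90 to 3.57) and Ocln (1.66, 0.64 to 2.46) were higher in the lung, and Cldn3 (-4.48), Cldn7 (-2.12) and Cldn4 (0 against 209 counts, at least 3.61-fold lower) were lower, beside 29.9% of 8776 genes higher and 24.7% lower. Ocln lay under 2-fold with TMM (0.91) and DESeq2 (0.97) scaling, which moved the median of all genes by -0.75 and -0.68. The same calls were made without cells over 10000 UMIs, where 28.3% of 8579 genes were higher and 25.8% lower. These libraries differ in cell class, so the ratios compare sites with their own cell types.

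The late lung against the primary tumor measured all 8 genes. Cldn5 (663 against 0 counts, at least 979-fold higher), Cldn18 (10.29) and Tjp1 (2.60, 1.99 to 3.23) were higher in the lung, beside 22.5% of 8740 genes. Cldn3 (-3.81), Cldn7 (-2.53), Cldn4 (0 against 57 counts, at least 4.29-fold lower) and Cldn1 (0 against 32 counts, at least 2.41-fold lower) were lower, beside 21.4%. Ocln was at 0.60 (-0.42 to 1.46). Without cells over 10000 UMIs, Cldn5, Cldn18, Ocln and Tjp1 were higher and Cldn3 and Cldn7 lower among 6 genes measured, where 21.5% of 5411 genes were higher and 25% lower. In that setting Cldn7 was only just past 2-fold at -1.03 (-2.20 to -0.13), and Ocln at 1.67 rested on 10 and 11 counts. The 2 site comparisons share no library, and each shares its libraries with a stage comparison.

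A wider list of 62 tight junction genes was read the same way between tumor and lesion. Over all cells 38 were measured, of which 11 were higher, 5 lower and 22 neither, with a median log2 ratio of 0.61 beside 0.33 over all genes, of which 25.6% were higher and 7.12% lower. Without the deep cells 3 of 35 were higher, 11 lower and 21 neither, with a median of -0.29 beside 0.16 over all genes, of which 14.9% were higher and 12% lower. Cldn10, an ion channel claudin of glands and kidney, was higher in the tumor in both settings, with 288 UMIs in the tumor and 7 in the lesion (6.37, 5.41 to 7.79) and then 69 and 7 (5.36). Cgnl1, which links junctions to the cytoskeleton, was also higher in both (3.01, then 1.78). Cldn10 stood at 42.6 CPM in the largest tumor cluster, 353 CPM in the cluster of 77 cells and 228 CPM in that of 21 cells, and Cgnl1 at 25.3, 391 and 219 CPM in the same order.

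Tjp3, the scaffold ZO-3, was lower in both settings, with 23 tumor UMIs and 488 lesion UMIs (-3.27, -3.97 to -2.70), then 10 and 451 (-3.28). F11r (junctional adhesion molecule A) and Lsr (a protein of junctions where 3 cells meet) were lower without the deep cells, at -2.51 with 8 tumor and 214 lesion UMIs and at -1.60 with 18 and 247. Amotl1 (2.04) and Marveld3 (1.12), further junction proteins, were higher over all cells, and Amotl1 was also higher without the deep cells. Of 16 measured adherens junction and desmosome genes, 7 were higher and none lower over all cells (beside 25.6% and 7.12% of all genes), and Perp (2.25), Jup (1.24), Pkp3 (1.28) and Ctnnd1 (1.19) were named by the same rule. Perp and Pkp3 were higher without the deep cells too (1.83 and 1.53), where 2 of 14 were higher and 2 lower (beside 14.9% and 12% of all genes). Under TMM scaling, which takes 0.40 from each ratio, Marveld3, Jup, Pkp3 and Ctnnd1 over all cells lay under 2-fold. Of 9 measured genes for transcription and splicing factors of epithelial and endothelial identity, 3 were lower in the tumor in both settings, Elf3, Elf5 and Ovol1, beside 7.12% of all genes lower over all cells and 12% without the deep cells. Grhl2 was higher over all cells and none was higher without the deep cells. Elf5, a factor of milk-producing luminal cells, had 386 tumor UMIs and 3465 lesion UMIs (-2.06, then -1.54).

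The wider lists were also read in the lung comparisons. Between the early lung and the early lesion, 17 of 36 tight junction genes were higher, 11 lower and 8 neither, beside 29.9% of all genes higher and 24.7% lower. Esam, an adhesion protein of endothelium, was higher at 5.81, and so were Amotl2 (3.91), Arhgef2 (2.58), Amotl1 (2.05) and Crb3 (1.95), while Tjp3 was lower (-2.86). Of 15 adherens junction and desmosome genes 7 were higher and 4 lower, and those named were the vessel cadherin Cdh5 (8.55), Vcl (3.24), Mllt4 (2.78), Ctnna1 (2.24), Jup (1.79) and Ctnnb1 (1.75). Of 12 regulators 4 were higher and 8 lower. The lung epithelial factor Nkx2-1 had 23 against 0 counts and was at least 148-fold higher, Sox18 (7.08) and Zeb2 (7.30) were higher, and Elf5 (-5.68), Grhl1 (0 against 263 counts) and Esrp1 (1 against 231 counts) were lower. In the late lung against the primary tumor, 11 of 38 tight junction genes were higher, 15 lower and 12 neither, with a median of -0.13, beside 22.5% of all genes higher and 21.4% lower. Without cells over 10000 UMIs 11 of 21 were higher, 3 lower and 7 neither, with a median of 1.24, beside 21.5% and 25%. Esam had 126 against 0 counts and Cdh5 297 against 0, and Nkx2-1 had 32 against 0. Cgnl1 (-2.39), Cldn10 (-2.07) and Marveld3 (-3.59) were lower in the lung. The calls for Cgnl1 and Cldn10 ended without the deep cells, where Cgnl1 had 46.2 CPM in the lung and 61.4 CPM in the tumor, and Cldn10 42.0 and 83.1 CPM. Of 19 measured genes of the list, Jam2 and Ybx3 joined Cldn5 as higher in the late against the early lung, and Crb3 (-1.59) and Pard6b (-1.29) were lower, beside 12.6% of all genes higher and 4.96% lower. Cdh5 was higher at 1.60 with 297 late and 48 early counts. None of these calls between the lungs was made without cells over 10000 UMIs, where Cldn3 was the single tight junction gene higher and none of 15 was lower.

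The genes most like each claudin were read over 12 sums of a library and a class, as the correlation of log2(CPM + 10) among 7865 genes. These sums share libraries, and small sums are noisy, so the values are a description. Cldn18 was most like Ager (r = 0.97), Tmsb4x and Rtkn2, and Cldn5 was most like Tmem100 (0.95), Icam2 and Gpihbp1. Cldn3 was most like Fabp5 (0.93), Ehf and Elf5, and Cldn7 was most like the keratin gene Krt18 (0.95), Epcam (0.92) and Krt8. For Cldn4 they were Cdk1, Crabp2 and Btn1a1, with 266 Cldn4 UMIs in all. Ocln (151 UMIs) and Tjp1 (164 UMIs) were most like Bre, Gripap1 and Nubp2, and Gcc2, Ssh2 and Map4k4, in sums where many values were 0. Cldn1 had too few UMIs for this measure.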

How the data were processed

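The 4 matrices deposited by the authors hold raw UMI counts per gene and barcode, with no normalization, from a 10x Chromium 3′ kit per the labels' protocols. Per the submitters' processing notes, reads were placed on mm10; the aligner, counter and annotation are not given in the sources used here. Total depth ran from 743765 to 6366768 UMIs a library. Cells were chosen by the thresholds given above. Doublets were marked with Scrublet and kept (7 cells). Clusters came from scanpy 1.11.5 (2000 variable genes without tight junction genes, 30 components, 15 neighbours, Leiden resolution 1.0) and were named from 16 marker lists, so names are rebuilt and end in "-like".

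Counts were summed over cells and scaled to CPM. Log2 ratios have 0.5 counts added to each sum. Their exact 95% intervals are Clopper-Pearson intervals on how the counts split between the libraries, without the added counts. Intervals are Poisson for levels and Clopper-Pearson for shares, and all of them cover counting error only. The ratio step was tested on simulated data for the primary tumor against the early lesion: of 200 genes changed 4-fold among 9755, 100% were recovered, and 96.0% of intervals held the true value. The changed genes had at least 100 counts over both libraries, and all counts were drawn as Poisson. Recovery of genes with fewer counts or changed 2-fold, and spread between cells, were not tested in this way. TMM factors of edgeR 4.0.16 and size factors of DESeq2 1.42.0 served only as other scalings. Python 3.11.15 and R 4.3.3 were used.

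The 8 genes and the wider lists were chosen with earlier results of these data known. Named from each wider list were up to 6 genes per comparison, at 50 CPM or more in either library and past 2-fold, by the interval bound nearest to equality. Genes named for likeness are the 3 highest for each gene with 100 UMIs or more. Alternatives were other UMI and mitochondrial limits, scalings, added counts, cell weights, doublet removal and clusterings. Gene positions are from GENCODE M21.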

Additional observations from a re-analysis of the deposited data

Results flagged for a closer look

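Cldn5 had opposite signs in the stage comparisons of the 2 sites. Its log2 ratio was -4.57 in the primary tumor against the early lesion (0 against 25 counts, a value that depends on the 0.5 added counts) and 1.05 in the late lung against the early lung (663 against 158 counts). The lung ratio was 0.14 (-0.23 to 0.52) without cells over 10000 UMIs and -0.29 with equal weight per cell, so its sign, and with it the opposite direction, depended on how the cells were summed. The difference between them was not tested. Of the 25 lesion counts, 20 came from 8 endothelial-like cells.

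Barcodes with at least 500 UMIs that missed the gene or mitochondrial limit still carried UMIs of the 8 genes. There were 85 such UMIs in 169 barcodes of the primary tumor, 57 of them Cldn3, and 31 in 112 barcodes of the early lesion, 18 of them Cldn3. In these barcodes the 8 genes together made up 745 CPM in the primary tumor and 409 CPM in the early lesion, against 825 and 945 CPM in the called cells.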

How the results depend on the processing

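No paired analysis was possible because each group has 1 library; for the same reason no replicate could be left out. Among the counts of called genes under the alternatives, 78 lay within 1.5 times the main count and 14 did not. In the primary tumor against the early lesion, 1 gene was higher in the main values, and 0 were without cells over 10000 UMIs or with the tumor's largest cluster alone (an alternative chosen after seeing the data). The number lower was 1, and it became 4 without cells over 10000 UMIs, 5 with the largest cluster alone, 2 with equal weight per cell, 2 with TMM, 2 with DESeq2 factors (Cldn4 and Cldn5 with either scaling), 0 with a minimum of 1000 UMIs, 0 with a minimum that scales with the library and 0 in mammary luminal-like cells only. Of all genes, 7.12% were lower and 25.6% higher over all cells, and 12% and 14.9% without cells over 10000 UMIs. In each comparison the share of all genes was not taken for the other settings, so their counts cannot be set against it. In the late lung against the early lung, 1 gene was higher, but 2 with a minimum of 1000 UMIs and 0 with equal weight per cell; 0 were lower, but 2 with a minimum of 1000 UMIs. In the late lung against the primary tumor, 4 genes were lower, but 2 without cells over 10000 UMIs. Cldn1 changed sign in the tumor's largest cluster (-0.67, with 1 count), and Cldn5 changed sign between the lungs with equal weight per cell (-0.29). The cause was not tested. Low counts limit Cldn1, Cldn4, Ocln and Tjp1, and counting intervals are too narrow where a few deep cells hold most UMIs.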
